A study of Mus musculus with 34 samples.

Results

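Levels of 10 genes of blood clotting were followed through all 34 mouse RNA-seq libraries of a study of chemical reprogramming. In it, fibroblasts pass through a state akin to extraembryonic endoderm, the XEN-like cells, on the way to neuronal or hepatocyte-like cells. The genes were taken by symbol: F2, F7, F9 and F10, which encode prothrombin and the vitamin K dependent factors VII, IX and X; F5, the cofactor factor V; Fga, Fgb and Fgg, the 3 chains of fibrinogen; Serpinc1, the inhibitor antithrombin; and Plg, plasminogen. All 10 were listed among the 48278 genes of the hepatic table, in both neuronal tables and in that of a library labelled P24, while 9 of them were used in the XEN-like table, where F9 was not analysed. Values were FPKM (fragments per kilobase of transcript, scaled to the fragments mapped), which correct for gene length, so that levels can be set side by side between genes of a library.

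The hepatic table held 4 libraries of hepatocyte-like cells made from chemically induced XEN-like cells, 2 of mouse hepatocytes, 2 of hepatic tissue and 2 of embryonic fibroblasts. The XEN-like table held 3 libraries of the XEN-like line F25 (passages 5, 8 and 13), 2 of the line s39 (passages 3 and 17), 8 of XEN-like colonies, 1 of chemically derived embryonic XEN cells (eXEN, passage 8) and 2 of fibroblasts. The neuronal libraries were 2 of colonies positive for TauEGFP, 1 of neuronal cells made with the chemical mixture FICB, 2 of primary cortical neurons, 1 of brain and 1 of fibroblasts, and 1 further library was a culture labelled as XEN-derived neurons at passage 24 (P24). All libraries were labelled with the strain Mapttm2(EGFP)Klt/J, which carries EGFP in the gene of the neuronal protein tau, apart from the primary neurons of strain C57BL/6. The labels give no age, dose or duration, nor whether libraries come from separate animals or cultures, so p-values here speak of library-to-library spread alone, which may be technical.

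In clotting, a cascade of proteases that circulate as inactive precursors ends with factor X, bound to its cofactor factor V, cutting prothrombin to thrombin. Thrombin cuts fibrinogen, an assembly of paired alpha, beta and gamma chains, into fibrin, which forms the clot. Antithrombin blocks thrombin and factor X, and plasminogen is the precursor of plasmin, which dissolves fibrin. The adult liver, chiefly its hepatocytes, secretes nearly all of these proteins into blood, and the 3 fibrinogen genes are known for rising together in inflammation.

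Several libraries went against their labels or stood apart, and this bears on the results that follow. The P24 library, labelled as neuronal, had summed FPKM of 8.25 over the neuron markers (Rbfox3 at 0, Map2 at 0.767), against 5243 over the 12 hepatocyte markers, 11 of which reached 1 FPKM, and it is called the library labelled P24 below. Primary neurons 2 had 67.5 FPKM over the neuron markers and 1622 over the macrophage markers, against 912 and 38.8 in primary neurons 1. Among the liver libraries, hepatic tissue 1 was closest to hepatocytes 2 (Pearson r across 15657 genes 0.960) and hepatic tissue 2 to hepatocytes 1 (0.981), while libraries of the same label reached 0.923 for hepatocytes and 0.928 for tissue. Hepatocytes 1 held macrophage markers at a summed 262 FPKM, near the 168 and 293 of the tissue libraries, and hepatocytes 2 held 14.9. Albumin (Alb) was listed at 0 in hepatocytes 1 and hepatic tissue 2, and at 51325 and 44788 FPKM in the other library of each, so a listed 0 may be a failed estimate. Apparent depths, read from the lowest values, lay between 6.0 M and 11.9 M fragments per library and are rough.

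**Figure D1:**
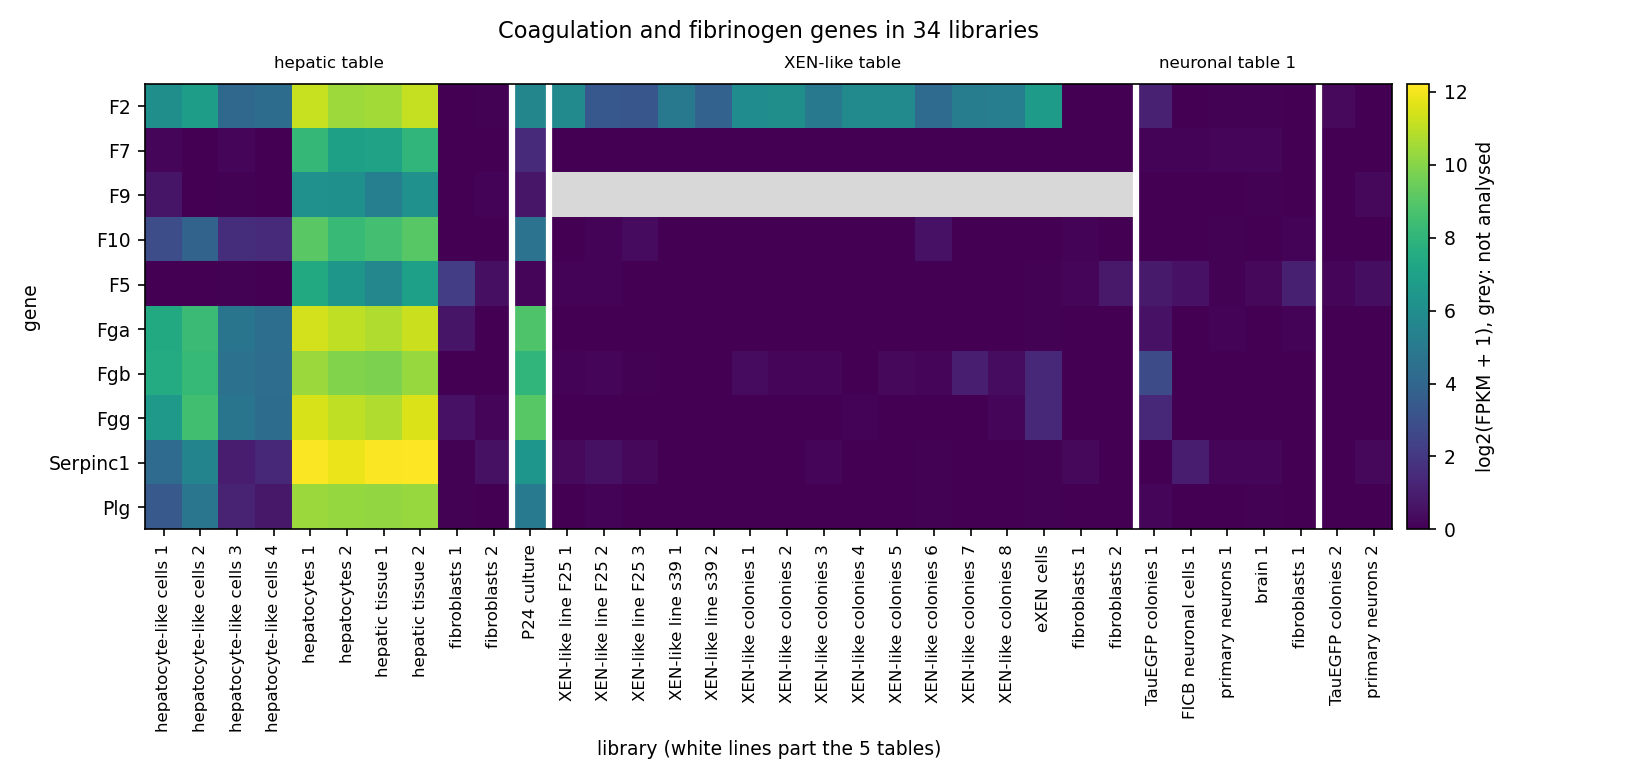
Levels of the 10 genes in all 34 libraries as log2(FPKM + 1), with a row per gene, a column per library and white lines between the 5 tables, which were normalized separately; grey marks F9 in the XEN-like table. All 10 rows are bright in the 4 liver libraries, 6 or 7 of them are above 1 FPKM in hepatocyte-like cells and F2 alone is above 10 FPKM in the XEN-like table.

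By mean level the fibrinogen chains led this group of genes in hepatocyte-like cells. Fga (ENSMUSG00000028001), the alpha chain, had 169, 314, 26.2 and 20.5 FPKM in hepatocyte-like cells 1 to 4, against 0.635 and 0 in fibroblasts. Fgb (ENSMUSG00000033831), the beta chain, had 184, 285, 23.6 and 19.4 FPKM in hepatocyte-like cells, against 0 in both fibroblast libraries. Fgg (ENSMUSG00000033860), the gamma chain, had 93.3, 365, 25.9 and 19.0 FPKM in hepatocyte-like cells, against 0.497 and 0.152 in fibroblasts. All 4 hepatocyte-like libraries lay above both fibroblast libraries for each chain, and libraries 1 and 2 lay several-fold above libraries 3 and 4. The share of all genes separated in this way was not computed, for this or any later comparison of groups. On the log2(FPKM + 1) scale, which understates changes of low genes, the difference was 6.17 ± 0.99 (SE) for Fgb, 5.87 ± 0.98 for Fga and 5.64 ± 0.98 for Fgg, with limma adjusted p of 0.00133, 0.00164 and 0.00205.

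The 3 fibrinogen genes lie side by side on chromosome 3 of mm10. Fgg spans 83007724 to 83015049 on the plus strand, Fga 83026076 to 83033627 on the plus strand and Fgb 83040141 to 83049863 on the minus strand, with gaps of 11026 and 6513 bases. F2 (ENSMUSG00000027249) is on chromosome 2, 91625320 to 91636414, minus strand. The fibrinogen chains had the highest mean levels of the set in hepatocyte-like cells, so their promoters are printed here. They come from RefSeq on GRCm38.p6, 250 bases before to 50 after the start site, 5′ to 3′ on the gene's strand. Fga is from chr3:83025903-83026202, Fgb from chr3:83049814-83050113 and Fgg from chr3:83007474-83007773. Capitals mark matches, on either strand, of the C/EBP motif TTGCNNAA and the IL-6 response motif CTGGGAA; none of the matches overlap.
Fga: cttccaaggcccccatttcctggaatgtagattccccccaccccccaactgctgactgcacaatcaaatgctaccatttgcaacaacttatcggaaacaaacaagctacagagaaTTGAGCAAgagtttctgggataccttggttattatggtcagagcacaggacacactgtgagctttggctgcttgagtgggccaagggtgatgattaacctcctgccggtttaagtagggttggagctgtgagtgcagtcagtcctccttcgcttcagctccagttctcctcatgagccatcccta
Fgb: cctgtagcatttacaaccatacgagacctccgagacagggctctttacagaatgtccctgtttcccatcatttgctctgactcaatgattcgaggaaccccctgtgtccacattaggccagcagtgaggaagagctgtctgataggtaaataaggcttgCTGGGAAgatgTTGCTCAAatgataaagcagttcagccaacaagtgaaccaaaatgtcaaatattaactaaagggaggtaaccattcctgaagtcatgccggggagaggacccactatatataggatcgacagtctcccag
Fgg: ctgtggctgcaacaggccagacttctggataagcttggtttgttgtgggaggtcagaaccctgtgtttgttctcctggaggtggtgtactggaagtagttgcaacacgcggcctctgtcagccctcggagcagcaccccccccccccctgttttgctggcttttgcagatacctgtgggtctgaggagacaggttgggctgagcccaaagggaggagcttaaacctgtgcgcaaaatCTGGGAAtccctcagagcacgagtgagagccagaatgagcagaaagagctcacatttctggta

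Fga and Fgb held the C/EBP motif, beginning at -135 and -80 from the start site, and Fgg held none. The IL-6 response motif was at -91 in Fgb and -13 in Fgg. Promoters matched for 9 of the 10 genes, and of these 9 the C/EBP motif was in 4 (also F9 and Serpinc1), the IL-6 response motif in 3 (also F9), and the HNF4 motif CAAAGTCCA and the TATA box TATAAA in none. Among all 32851 promoters of 300 bases, the C/EBP motif was in 10.8%, the IL-6 response motif in 11.1%, HNF4 in 0.475% and TATAAA in 13.6%. These are matches of letters in a short window and not shown sites.

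Prothrombin and factor X were present in hepatocyte-like cells at lower levels. F2 had 67.1, 113, 15.9 and 19.2 FPKM in hepatocyte-like cells, against 0 and 0.0372 in fibroblasts. F10 (ENSMUSG00000031444; chromosome 8, 13037308 to 13056676, plus strand) had 6.42, 13.8, 2.04 and 1.86 FPKM in hepatocyte-like cells, against 0 in both fibroblast libraries. Neither gene's groups overlapped. The log2 difference was 5.31 ± 0.71 (SE, limma adjusted p = 0.000463) for F2 and 2.47 ± 0.62 (adjusted p = 0.0147) for F10. The F10 call was lost when either fibroblast library was left out (adjusted p = 0.108 without library 1 and 0.111 without library 2), at the same difference.

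Antithrombin and plasminogen were present in libraries 1 and 2 and near 1 FPKM in libraries 3 and 4. Serpinc1 (ENSMUSG00000026715; chromosome 1, 160978585 to 161005863, plus strand) had 18.0, 44.2, 0.933 and 1.55 FPKM in hepatocyte-like cells, against 0.0607 and 0.477 in fibroblasts. Plg (ENSMUSG00000059481; chromosome 17, 12378608 to 12419385, plus strand) had 9.58, 26.2, 1.33 and 0.726 FPKM in hepatocyte-like cells, against 0.0356 and 0 in fibroblasts. Every hepatocyte-like library was above both fibroblast libraries for both genes, but the spread was wide. Neither passed the test, at log2 differences of 2.69 ± 1.11 (adjusted p = 0.0989) for Serpinc1 and 2.52 ± 0.94 (adjusted p = 0.0725) for Plg. With a pseudocount of 0.1 FPKM both passed, at 4.32 (adjusted p = 0.0428) for Serpinc1 and 5.16 (adjusted p = 0.0100) for Plg, and likewise without hepatocyte-like cells 3 (adjusted p = 0.0323 and 0.0430); Plg also passed without hepatocyte-like cells 4 (adjusted p = 0.0232). The 3' end of Serpinc1 overlaps Zbtb37 on the opposite strand, and Plg overlaps Slc22a3 in the same way. The library kit named in the labels does not mark strand, so reads there cannot be told apart; Zbtb37 reached at most 3.34 FPKM and Slc22a3 at most 2.66 in the hepatic table.

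The cofactor and the remaining proteases were near 0 in hepatocyte-like cells. F5 (ENSMUSG00000026579; chromosome 1, 164151838 to 164220277, plus strand) had 0, 0, 0.0376 and 0.0158 FPKM in hepatocyte-like cells, against 3.66 and 0.422 in fibroblasts, so here the fibroblasts were the higher group. F7 (ENSMUSG00000031443; chromosome 8, 13026034 to 13035809, plus strand) had 0.131, 0, 0.169 and 0 FPKM in hepatocyte-like cells, against 0 in both fibroblast libraries. F9 (ENSMUSG00000031138; chromosome X, 59999464 to 60030759, plus strand) had 0.636, 0, 0.0363 and 0 FPKM in hepatocyte-like cells, against 0 and 0.0876 in fibroblasts. The 2 groups overlapped for F7 and F9. None of these 3 genes reached 1 FPKM in 2 libraries, so they were not tested. F7 ends 1498 bases before F10 starts, on the same strand, and Proz, the gene of protein Z, follows F10 after 4237 bases. Proz had 3.03, 2.26, 0.232 and 0.342 FPKM in hepatocyte-like cells. Within this row of neighbours, F10 and Proz thus had values above 1 FPKM in hepatocyte-like cells 1 and 2, where F7 was at 0.131 and 0.

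Of the 10 genes, 7 passed the filter on low values, each through the hepatocyte-like libraries, and 5 were called higher than in fibroblasts, where 12.2% of all 14928 genes tested were called higher. Calls needed an adjusted p below 0.05 together with a change of 1 or more, up or down, on the log2 scale. Hepatocyte-like cells 3 and 4 shared the flow cell HH2TTALXX with both fibroblast libraries, and within this flow cell the same 5 genes passed, with log2 differences of 4.18 ± 0.29 for F2, 1.56 ± 0.22 for F10, 4.24 ± 0.38 for Fga, 4.49 ± 0.29 for Fgb and 4.14 ± 0.33 for Fgg. Hepatocyte-like cells 1 and 2 each came from a flow cell of their own.

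**Figure D2:**
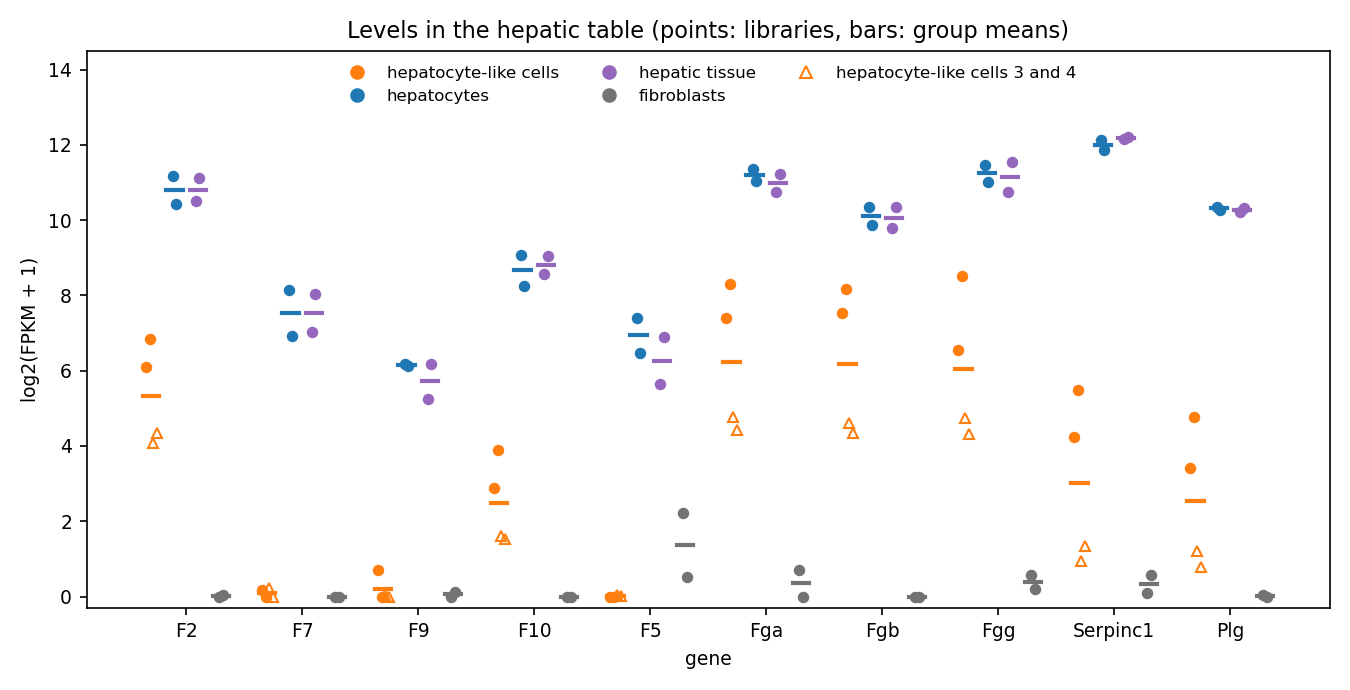
Levels of the 10 genes in the hepatic table as log2(FPKM + 1), with points for libraries, bars for group means and open triangles for hepatocyte-like cells 3 and 4. Hepatocyte-like cells lie between liver and fibroblasts for F2, F10, the fibrinogen chains, Serpinc1 and Plg, and at or near 0 for F7, F9 and F5.

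The liver libraries held all 10 genes at high levels, and hepatocyte-like cells were below them for every one. Fga had 2625 and 2102 FPKM in hepatocytes and 1721 and 2395 in hepatic tissue. Fgb had 1314 and 937 FPKM in hepatocytes and 881 and 1297 in tissue. Fgg had 2839.9 and 2069 FPKM in hepatocytes and 1708 and 3011 in tissue. The hepatocyte-like libraries, at most 365 FPKM for any chain, did not overlap with these. Averaged over the 4 libraries, hepatocyte-like cells held 11.4% of the mean hepatocyte level of Fgb, 5.61% of that of Fga and 5.12% of that of Fgg. By library the share of Fgb was 16.3%, 25.4%, 2.09% and 1.73%, the highest share among the 10 genes in each library. The log2 differences between hepatocyte-like cells and hepatocytes were -3.95 ± 0.98 (SE, limma adjusted p = 0.00690) for Fgb, -4.97 ± 0.97 (adjusted p = 0.00191) for Fga and -5.21 ± 0.97 (adjusted p = 0.00149) for Fgg.

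By share of the hepatocyte level, F10, F7, F9 and the cofactor F5 lay further below liver than fibrinogen did in every hepatocyte-like library. For F2 the mean share was lower too. In library 4, however, its share was 1.04%, against 0.866% for Fga and 0.775% for Fgg. F2 had 2294 and 1384 FPKM in hepatocytes and 1445 and 2225 in tissue, and hepatocyte-like cells held 2.92% of the mean hepatocyte level. F10 had 538 and 306 FPKM in hepatocytes and 381 and 529 in tissue, with 1.43% in hepatocyte-like cells. For F7 the levels were 283 and 119.8 FPKM in hepatocytes and 130.3 and 262 in tissue, with 0.0371% in hepatocyte-like cells. F9, the lowest of the 10 in liver, had 70.8 and 68.4 FPKM in hepatocytes and 37.2 and 71.2 in tissue, with 0.241% in hepatocyte-like cells. F5 had 169 and 87.8 FPKM in hepatocytes and 48.7 and 118 in tissue, with 0.0104% in hepatocyte-like cells. No hepatocyte-like library reached the lowest liver library for any of these 5 genes. How many of all genes are separated like this was not computed. The shares of F2 and F10 were those with more than 1%. The log2 differences from hepatocytes were -5.47 ± 0.71 for F2, -6.19 ± 0.62 for F10, -7.43 ± 0.40 for F7, -5.95 ± 0.35 for F9 and -6.92 ± 0.52 for F5.

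Antithrombin showed the widest gap on the log2 scale, but not by share. F5, F7 and F9, at 0.0104%, 0.0371% and 0.241% of the hepatocyte mean, lay further below liver by share. Serpinc1 was the highest of the 10 genes in liver, at 4518 and 3698 FPKM in hepatocytes and 4526 and 4723 in tissue, and the share in hepatocyte-like cells was 0.394% of the hepatocyte mean. Plg had 1314 and 1237 FPKM in hepatocytes and 1180.2 and 1287 in tissue, with a share of 0.743%. The highest hepatocyte-like library, number 2, lay far below the lowest liver library for both. The log2 difference from hepatocytes was -8.98 ± 1.10 (adjusted p = 0.000136) for Serpinc1 and -7.77 ± 0.93 (adjusted p = 0.000123) for Plg.

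All 10 genes passed the filter through the liver libraries and were called lower in hepatocyte-like cells than in hepatocytes, where 8.34% of 13935 genes were called lower. Against hepatic tissue all 10 were called lower too, with 8.77% of 14016 genes called lower, and the log2 differences reached from -3.90 ± 0.98 for Fgb to -9.16 ± 1.10 for Serpinc1. These comparisons share the 4 hepatocyte-like libraries. The median log2 difference of all genes was 1.10 against hepatocytes, and 0.07 once libraries were brought to a common scale by median ratios. Of the genes called against hepatocytes 85.0% were higher in hepatocyte-like cells, and 51.5% on the common scale; against tissue the shares were 84.5% and 47.9%. All 10 genes were called lower on that scale as well. Without hepatocytes 1, 6 of the 10 were called: F5, F7 and F9 then missed the filter and Fgb missed the threshold at a similar difference (-3.71, adjusted p = 0.0530). Without hepatic tissue 2, 6 were called against tissue (Fgb at -3.62, adjusted p = 0.0553). The liver libraries shared no flow cell with hepatocyte-like cells, so flow cell and group cannot be told apart here, and in bulk libraries fewer cells of a type and less RNA per cell cannot be told apart either.

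**Figure D3:**
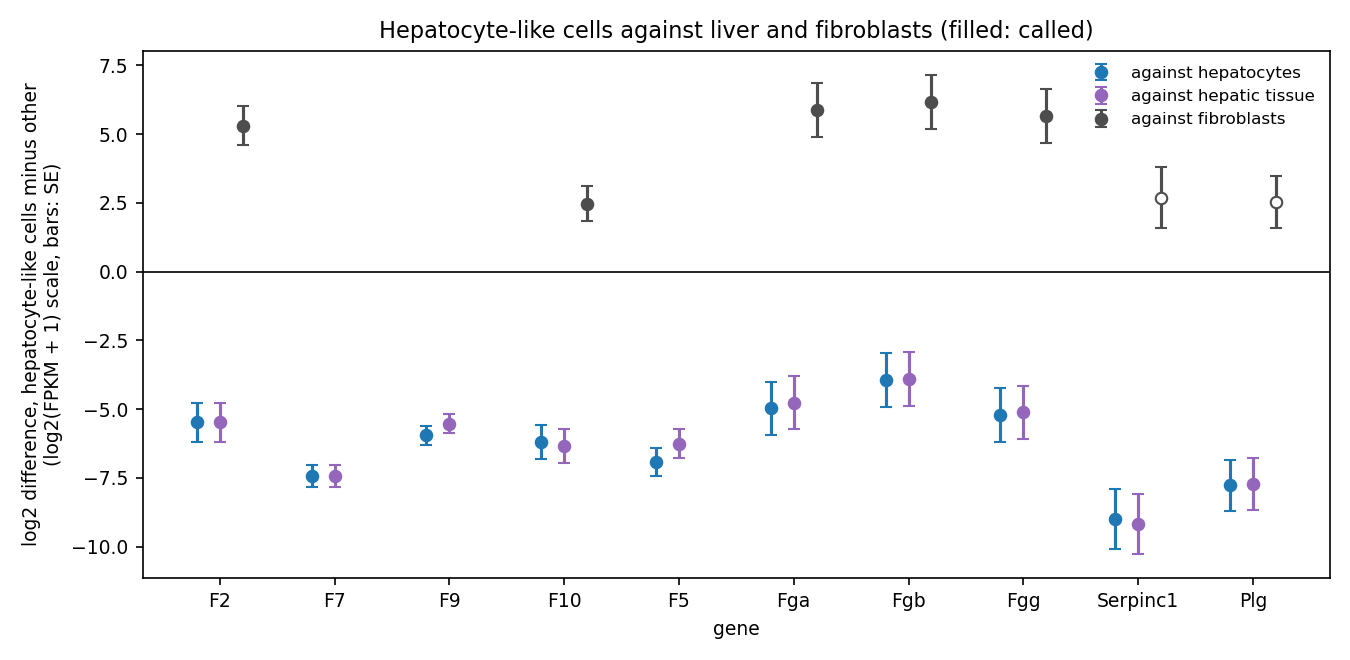
Log2 differences of hepatocyte-like cells from hepatocytes, hepatic tissue and fibroblasts for each gene (log2(FPKM + 1) scale, bars are SE, filled points were called). Against liver all 10 genes are below 0, from -3.90 for Fgb to -9.16 for Serpinc1; against fibroblasts the 7 genes tested are above 0 and Serpinc1 and Plg are open.

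None of these genes passed the test between hepatocytes and hepatic tissue. The limma test called 0 of the 10, and 0.0% of 10870 genes in all, and 314 genes had an unadjusted p below 0.05, none of the 10 among them. The log2 differences, hepatocytes minus tissue, reached from -0.18 ± 1.27 (Serpinc1) to 0.67 ± 0.60 (F5). These SEs come from 1 model of all 10 hepatic libraries, so they also carry the wide spread of the hepatocyte-like libraries. Liver libraries also resembled those of the other label, as described above. The absence of calls therefore does not show that the 2 labels have equal levels. For Serpinc1 both hepatocyte libraries (at most 4518 FPKM) lay below both tissue libraries (at least 4526 FPKM), and for the other genes the labels overlapped. With 2 libraries per label such an order arises readily without a difference. The share of all genes that did not overlap was not computed.

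The order of levels changed between liver and hepatocyte-like cells. In hepatocytes the means ran from Serpinc1 at 4108 ± 579.9 FPKM (SD, n = 2) through Fgg at 2455 ± 545, Fga at 2364 ± 370.0, F2 at 1839 ± 644, Plg at 1276 ± 54.6 and Fgb at 1126 ± 266 to F10 at 422 ± 164, F7 at 201 ± 115, F5 at 128 ± 57.2 and F9 at 69.6 ± 1.67. Tissue had the same order of means. Among neighbours in this order, Fgg and Fga, Fga and F2, and Plg and Fgb overlapped in hepatocytes and in tissue, F7 and F5 in hepatocytes, and F5 and F9 in tissue. In hepatocyte-like cells Fga came first at 132 ± 139 FPKM (SD, n = 4), followed by Fgb at 128 ± 130, Fgg at 126 ± 163, F2 at 53.8 ± 45.9, Serpinc1 at 16.2 ± 20.3, Plg at 9.47 ± 11.9 and F10 at 6.02 ± 5.58. The SDs are about as large as the means, libraries 1 and 2 lay above 3 and 4, and neighbours among these 7 overlapped. The order also differed between libraries: Fgb was first in library 1 and Fgg in library 2, F10 lay above Serpinc1 and Plg in libraries 3 and 4, and F2 lay above Fgg in library 4.

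The fibrinogen chains differed several-fold between hepatocyte-like libraries, while the ratio of Fgb to Fga varied little and that of Fgg to Fga varied more. The sum of the 3 chains was 446, 964, 75.7 and 58.9 FPKM in hepatocyte-like cells 1 to 4, against 6779 and 5109 in hepatocytes and 4310.1 and 6703 in tissue. The ratio of Fgb to Fga was 1.09, 0.909, 0.899 and 0.949 in hepatocyte-like cells, against 0.501 and 0.446 in hepatocytes and 0.512 and 0.542 in tissue. All 4 hepatocyte-like ratios lay above the 4 liver ratios. The mean log2 ratio was higher by 1.02 than in hepatocytes and by 0.86 than in tissue, each with an exact two-sided permutation p of 0.133, the smallest that 4 against 2 libraries allow. The ratio of Fgg to Fga was 0.551, 1.16, 0.987 and 0.930 in hepatocyte-like cells, against 1.08 and 0.984 in hepatocytes and 0.993 and 1.26 in tissue, and the ranges overlapped. Serpinc1 stood at 0.107, 0.141, 0.0356 and 0.0757 times Fga in hepatocyte-like cells, against 1.72 and 1.76 in hepatocytes and 2.63 and 1.97 in tissue. That ratio did not overlap either, again with an exact permutation p of 0.133 against hepatocytes and against tissue. These ratios were chosen after the levels were seen.

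**Figure D4:**
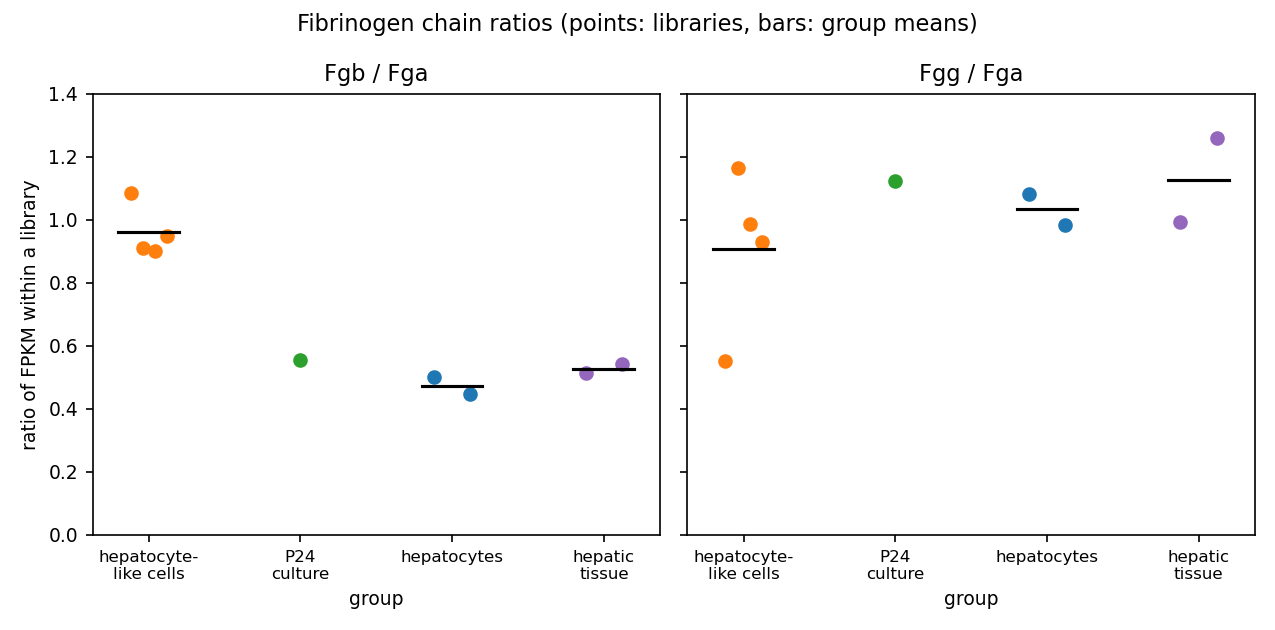
Ratios of Fgb to Fga and of Fgg to Fga within each library (points) with group means (bars) in hepatocyte-like cells, the library labelled P24, hepatocytes and hepatic tissue. Fgb over Fga lies at 0.899 to 1.09 in hepatocyte-like cells and at 0.446 to 0.542 in the 4 liver libraries, and the library labelled P24 is at 0.556.

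Of the cell marker lists, those of hepatocytes and red cells were highest in the hepatocyte-like libraries with most fibrinogen. The 12 hepatocyte markers summed to 7983, 7582, 1532 and 2329 FPKM in hepatocyte-like cells 1 to 4, against 73829 and 112360.0 in hepatocytes, 129643 and 79952 in tissue, and 7.30 and 8.17 in fibroblasts. These markers include Alb, listed at 0 in hepatocytes 1 and hepatic tissue 2, so the sums of those libraries lack it. The 13 extraembryonic endoderm markers summed to 6595, 7102, 4573 and 10042 FPKM in hepatocyte-like cells, against 139 and 189.8 in fibroblasts. Red cell markers summed to 345, 127, 7.32 and 4.61 FPKM in hepatocyte-like cells, against 1.08 and 0 in fibroblasts. Only 2 of the 6 red cell markers reached 1 FPKM in each hepatocyte-like library, and the 2 tested were not called against fibroblasts. Platelet markers summed to 11.4, 3.36, 5.05 and 0.995 FPKM in hepatocyte-like cells, against 45.1 and 59.0 in fibroblasts. Endoderm markers were highest in library 4, which had the least fibrinogen. The 5 cholangiocyte markers summed to 2949, 1889, 1075 and 2003 FPKM in hepatocyte-like cells, against 0.542 and 1.22 in hepatocytes, 8.94 and 3.89 in tissue, and 2954 and 3407 in fibroblasts. Of these 5, 4 were called higher than in hepatocytes, where 47.1% of all genes were. Against fibroblasts 3 were called higher and 1 lower, where 12.2% of all genes were called higher and 15.9% lower. The part of cells with such markers in the clotting values was not tested.

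Other genes of coagulation were mostly lower than in hepatocytes, but tissue factor and its inhibitor were higher. Of the other coagulation genes tested against hepatocytes, 13 of 20 entries were called lower (Klkb1 counts under 2 identifiers) and 3 higher. Of all genes, 8.34% were called lower and 47.1% higher. The median log2 difference of the list was -4.01, beside 1.10 for all genes. The largest falls were Hrg, histidine-rich glycoprotein (-7.27 ± 0.68), and Serpind1, the thrombin inhibitor heparin cofactor II (-6.96 ± 0.29). The 3 higher genes were Tfpi, the inhibitor of tissue factor (7.25 ± 0.49), F3, tissue factor itself (5.56 ± 0.70), and Procr, the protein C receptor (4.38 ± 0.61). Tfpi averaged 233 ± 119 FPKM in hepatocyte-like cells (SD, n = 4), against 0.444 ± 0.572 in hepatocytes (SD, n = 2) and 45.9 ± 19.4 in fibroblasts (SD, n = 2). F3 averaged 134 ± 119 FPKM in hepatocyte-like cells, against 1.46 ± 1.48 in hepatocytes and 227 ± 140 in fibroblasts. Tfpi was thus above both, and F3 was above hepatocytes and in the range of fibroblasts. Thbd, Vwf, Pros1 and F8 were not called against hepatocytes, at log2 differences of -0.30 to 2.34. Against hepatic tissue the list again had 13 lower and 3 higher, with 8.77% of all genes called lower and 47.8% higher.

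Fibrinolysis genes went both ways. Against hepatocytes 6 of 8 tested were called higher and 2 lower (median 4.31), where 47.1% of all genes were called higher and 8.34% lower. The lower ones were Serpinf2, the plasmin inhibitor (-6.60 ± 0.77), and Cpb2, which trims fibrin and slows its breakdown (-4.50 ± 1.38). The higher ones included Plaur, the urokinase receptor (7.05 ± 0.47), and Plat, the tissue plasminogen activator (6.20 ± 1.04). Against fibroblasts 3 of 10 were called higher and 5 lower (median -0.20, beside 0.10 for all genes). Of all genes, 12.2% were called higher there and 15.9% lower. Serpine2 (-4.20 ± 0.47) and Plau, urokinase (-3.36 ± 0.63), were among the lower ones. Serpinf2 was among the higher ones, at 2.58 ± 0.77.

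Of the 7 genes that finish and export vitamin K dependent factors, 6 were at 1 FPKM or more in every hepatic library, and Pdia2 was listed at 0 in all of them. Against fibroblasts the limma adjusted p of the 6 tested ran from 0.0516 (Furin, -0.88 ± 0.30) to 0.927 (Mcfd2, -0.06 ± 0.40). Against hepatocytes Vkorc1, the vitamin K reductase, was called lower by 1.88 ± 0.37 with 88.1 ± 28.3 FPKM in hepatocyte-like cells (SD, n = 4) and 314 ± 67.1 in hepatocytes (SD, n = 2), and so was the protease Furin, at -1.79 ± 0.31. Ggcx, the carboxylase that these factors need, was at 10.7 ± 4.30 FPKM in hepatocyte-like cells, against 19.1 ± 13.6 in hepatocytes and 11.02 ± 0.933 in fibroblasts, and was not called. Of the thrombin receptors, F2rl1 had 23.2 ± 15.0 FPKM in hepatocyte-like cells, against 0 in both hepatocyte libraries and 0.865 ± 0.619 in fibroblasts. F2r had 27.0 ± 5.93 FPKM in hepatocyte-like cells, against 0.937 ± 0.587 in hepatocytes and 129 ± 14.6 in fibroblasts. Both receptors were called higher than in hepatocytes, where 47.1% of all genes were. Against fibroblasts F2rl1 was called higher and F2r lower, where 12.2% of all genes were called higher and 15.9% lower.

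Liver transcription factors, several of which bind promoters of clotting genes, had a median log2 difference from hepatocytes of -1.89, beside 1.10 for all genes. The 10 genes lay between -3.95 and -8.98, but a median and a range are unlike measures. On this scale a gene can also fall no further than its liver level allows. Against fibroblasts 7 of 11 tested were called higher and none lower (median 2.69), where 12.2% of all genes were called higher and 15.9% lower. Hnf4a was at 59.1 ± 22.2 FPKM in hepatocyte-like cells (SD, n = 4), against 159 ± 5.53 in hepatocytes and 0.0108 ± 0.0153 in fibroblasts (SD, n = 2 each). Cebpa was at 33.1 ± 15.7 FPKM in hepatocyte-like cells, against 259 ± 206 in hepatocytes and 21.2 ± 8.65 in fibroblasts. Against hepatocytes 8 of 13 were called lower, where 8.34% of all genes were, among them Hnf4a (-1.48 ± 0.33) and Cebpa (-2.77 ± 0.69).

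The genes whose profile over the 10 hepatic libraries came nearest to the mean profile of the 10 were Apcs, Apob, Hsd17b6, Serpinf2 and Apof. Likeness was the root mean square difference of centred log2(FPKM + 1), among 10646 genes with at least 10 FPKM in a library, and these 5 differed by 0.379 to 0.554. F10 was nearer to that mean, at 0.244, and F5 was farthest of the 10, at 1.84. The mean includes the 10 genes themselves, which draws it towards each of them. Apcs, the gene of serum amyloid P, averaged 6.14 ± 5.53 FPKM in hepatocyte-like cells (SD, n = 4), against 492 ± 264 in hepatocytes, 582 ± 437 in tissue (SD, n = 2 each) and 0 in both fibroblast libraries.

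In XEN-like cells F2 was present, and the other genes of the set that were analysed were near 0. F2 had 56.3, 9.23 and 8.63 FPKM in the line F25 at passages 5, 8 and 13, and 13.2 and 29.5 in the line s39 at passages 3 and 17, against 0 in both fibroblast libraries of the table. In the 8 colonies F2 ranged from 18.5 to 66.6 FPKM with a median of 46.3, and in the library of eXEN cells it was at 103 FPKM, the highest of the table. Every XEN-like library lay above both fibroblast libraries. In F25 the lowest passage had the highest value, and in s39 the higher passage had it.

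Means were 24.7 ± 27.4 FPKM in F25 (SD, n = 3), 21.3 ± 11.6 in s39 (SD, n = 2) and 44.7 ± 17.3 in colonies (SD, n = 8). F2 was called higher in colonies than in fibroblasts, with a log2 difference of 5.44 ± 0.59 (SE, limma adjusted p = 4.27e-06), where 18.3% of 13639 genes were called higher. In the lines the difference from fibroblasts was 4.12 ± 0.67 (adjusted p = 0.000224), where 20.2% of 13287 genes were called higher. Colonies gave 5.64 within the HVN flow cells and 5.26 within flow cell HJMKLALXX. Each of these differences rests on the 1 fibroblast library there. Median-ratio scaling moved the median of all genes from 0.17 to -0.02 for colonies and from 0.20 to -0.08 for lines, where 56.3% of called genes were higher without it and 41.8% with it. Lines and colonies did not differ by the test (-1.33 ± 0.52, unadjusted p = 0.0220, adjusted p = 0.290), in a comparison that called 0.0897% of 13375 genes, and their ranges overlapped.

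**Figure D5:**
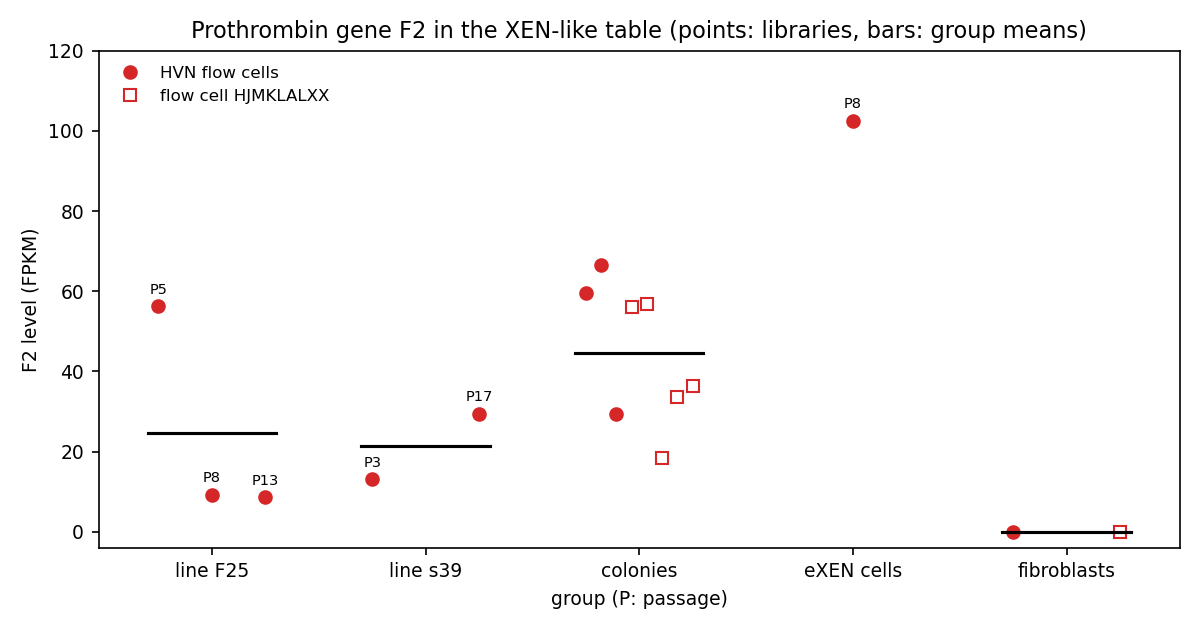
F2 level in FPKM in each library of the XEN-like table, with passages marked P, filled circles for the HVN flow cells, open squares for flow cell HJMKLALXX and bars for group means. All 13 libraries of lines and colonies lie between 8.63 and 66.6, eXEN cells are at 103 and both fibroblast libraries are at 0.

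The other 8 genes analysed in the XEN-like table were near 0, and none passed the filter. Fga was 0 in all 13 libraries of lines and colonies, and F7 was 0 in all 16 libraries. Fgb reached 1.03 FPKM in colony 7 and at most 0.310 in the other colonies, Fgg at most 0.110, and F10 at most 0.508, in colony 6. Serpinc1 reached at most 0.483 and Plg at most 0.0952, both in F25 at passage 8. F5 was at most 0.0830 in lines and colonies, against 0.167 and 0.769 in the fibroblasts. In eXEN cells Fgb had 1.54 FPKM and Fgg 1.68. So the fibrinogen chains, at 19.0 FPKM or more in each hepatocyte-like library, were at most 1.68 in this table. The F2 values of XEN-like cells and of hepatocyte-like cells 3 and 4 (15.9 and 19.2 FPKM) had similar sizes, but the tables were normalized separately and this was not tested.

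The transcription factors in XEN-like colonies included Hnf4a at 6.97 ± 3.33 FPKM (SD, n = 8), against 0.0313 ± 0.0442 in fibroblasts (SD, n = 2). Cebpb was called lower in colonies, at -4.63 ± 0.64 on the log2 scale. Of 11 liver transcription factors tested, 7 were called higher and 1 lower in colonies (median 1.45), where 18.3% of all genes were called higher. In lines 6 were called higher and 1 lower (median 1.71), where 20.2% of all genes were called higher. Ckap5, a gene 4655 bases from F2, had 15.0 to 30.7 FPKM in colonies, against 12.03 and 21.6 in the 2 fibroblast libraries. Fibrinolysis genes were lower in colonies for 8 of 8 tested (median -2.94), where 17% of all genes were called lower. In lines 5 of 7 were called lower (median -3.22), where 15.7% of all genes were. Other coagulation genes were lower for 4 of 9 tested in colonies and 2 of 7 in lines, with none higher. The receptor F2r was called lower in both, at -3.00 ± 0.42 in colonies and -2.83 ± 0.48 in lines. The hepatocyte markers in this table summed to between 1.395 and 4.93 FPKM in colonies and between 4.12 and 78.2 in lines, against 1.07 and 12.4 in fibroblasts. The 78.2 was in F25 at passage 5, which also had the highest F2 of the lines, and the part of such cells in the F2 values was not tested.

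The library labelled P24 carried most of the set; its table was normalized separately. Fgg was at 521 FPKM, Fga at 465 and Fgb at 258, F2 at 47.1, F10 at 23.7, Serpinc1 at 83.1 and Plg at 31.5. The remaining genes were low, with F7 at 1.86, F9 at 0.676 and F5 at 0.127 FPKM. The genes present and those near 0 were the same as in hepatocyte-like cells, with F7 slightly above 1 FPKM in this library. Hnf4a was at 74.6 FPKM and Afp, alpha-fetoprotein, at 2924. The ratio of Fgb to Fga was 0.556 and of Fgg to Fga 1.12. With 1 library in a table of its own there is no replicate check and no test.

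In neuronal libraries the set was near 0. TauEGFP colonies 1 had Fgb at 6.08 FPKM, Fgg at 1.67, F2 at 1.14 and Fga at 0.521, against 0, 0, 0 and 0.10 in the fibroblasts of that table. TauEGFP colonies 2 had 0.259 FPKM of F2 and 0 of each fibrinogen chain. The fibrinogen signal was thus in 1 of the 2 TauEGFP libraries, and that library also held 545 FPKM summed over the endoderm markers, against 71.1 in TauEGFP colonies 2 and 83.9 in the fibroblasts. The part of such cells in the signal was not tested. FICB neuronal cells reached at most 0.955 FPKM for any of the genes (Serpinc1), brain at most 0.211 (F5), and primary neurons at most 0.357 (F5). F5 was highest in the fibroblasts of the first neuronal table, at 1.13 FPKM. None of the 10 genes passed the filter for TauEGFP colonies against primary neurons, so none was tested.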

How the data were processed

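Poly-A RNA of 34 mouse libraries had been prepared with the NEBNext Ultra kit, which does not mark strand, per the labels' protocols. The authors deposited 5 tables of FPKM; 1 header names this unit, and the values of the remaining 4 have its range and scale. The submitters' processing notes name TopHat2 and the build mm10; the version, counting tool and annotation are not given in the sources used here. Total counts are not stated. Apparent depth came from the smallest values above 0 in genes with 1 exon, so no floor or interval was computed.

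Rows with repeated identifiers (118 in the hepatic table, 118 in the P24 table and 99 in the first neuronal table) and 1 row with an empty cell in the XEN-like table were dropped. Symbols and positions came from GENCODE vM21, which matched 97.3% to 99.5% of identifiers. Groups followed the labels. limma 3.58.1 in R 4.3.3 was fitted to log2(FPKM + 1) with empirical Bayes moderation and a variance trend, for all genes at 1 FPKM or more in at least 2 libraries of the groups compared, and p-values were adjusted by the Benjamini-Hochberg method over all genes tested. The 10 hepatic libraries shared 1 model. The 16 XEN-like libraries shared 1 model with a flow cell term, and the lines are the mean of the F25 and s39 means. TauEGFP colonies were compared with primary neurons with the table as a block, which leaves 1 residual degree of freedom. All tests were two-sided.

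The fits were tested on simulated data with known changes. The fit of TauEGFP colonies against primary neurons recovered none of these changes. The 10 genes were named whatever their values. Other genes came from lists and a likeness rule, of which up to 4 called genes with the largest differences, and any uncalled gene, could be named; F3, Procr, Cpb2 and, in liver and colonies, Hnf4a fall outside this rule and were named after their values were seen. Members and lists were chosen with earlier results of these data known. Alternatives covered the pseudocount, the filter, median-ratio scaling, flow cells, a replicate block and leaving out each library. Results for some named items are not reported here.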

Additional observations from a re-analysis of the deposited data

Results flagged for a closer look

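For normally distributed values, chance marks about 1 group in 20 for a library far from the others. Whether FPKM values meet this condition was not checked. Of 9 groups of 4 or more libraries in which a gene of the set reached 1 FPKM, 1 was marked. It was Fgb in XEN-like colonies, where colony 7 had 1.03 FPKM and the next highest colony 0.310. That group was looked at only because colony 7 itself reached 1 FPKM, so the rate above does not apply to it.

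Some libraries outside the tests held a signal above the fibroblasts of their table. In eXEN cells F2 was at 103 FPKM, Fgb at 1.54 and Fgg at 1.68, against 0 for each in both fibroblast libraries. In TauEGFP colonies 1 Fgb was at 6.08 FPKM, Fgg at 1.67 and F2 at 1.14, against 0 for each in the fibroblasts. Each is 1 library with no replicate check.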

How the results depend on the processing

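Directions were kept under every alternative that could be fitted and in which the genes passed the filter. In hepatocyte-like cells this held for the 10 genes against both liver groups and the 7 genes tested against fibroblasts. It also held for F2 in colonies and lines against fibroblasts. The groups did not overlap for these genes, so leaving out a library, the pseudocount and the filter could hardly have turned a sign. Leaving out a library gave 1356 to 4452 genes called between hepatocyte-like cells and fibroblasts (4 to 7 of the 10 genes), 5092 to 8043 against hepatocytes and 5454 to 8215 against tissue (6 to 10 of the 10 genes in both), 0 to 14 between hepatocytes and tissue, and 5 to 43 between lines and colonies. The low ends against fibroblasts came without fibroblast library 1 (1373) or 2 (1356). Median-ratio scaling gave 4792 genes against hepatocytes (2466 higher, 2326 lower), 5059 against tissue (2422 higher, 2637 lower) and 4 between hepatocytes and tissue, and leaving out the filter gave 7 there. Colonies against fibroblasts had 2661 genes within flow cell HJMKLALXX. Lines against colonies had 36 without the flow cell term and 134 within the HVN flow cells. The cause of these shifts was not tested.

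Between hepatocytes and tissue, where no gene of the 10 was called, signs turned. Scaling gave -0.0060 for Fgb and -0.011 for Plg. Leaving out 1 liver library at a time, the log2 difference ran for F10 from -0.55 to 0.26, F2 from -0.37 to 0.35, F7 from -0.62 to 0.61, F9 from -0.032 to 0.89, Fga from -0.028 to 0.45, Fgb from -0.22 to 0.33, Fgg from -0.31 to 0.50 and Plg from -0.013 to 0.11.

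The replicate block, pairing fibroblasts 1 and 2 with colonies 1 and 2, called 2874 genes. Deviations of same-numbered libraries correlated at 0.04. Fibroblasts 1 and 2 differ in flow cell while colonies 1 and 2 share one, so this cannot tell whether the libraries are paired. The labels give only a shared number. Leaving out a library could not be fitted for TauEGFP colonies against primary neurons, which has no residual degree of freedom then. Depth is known only roughly, so values under 1 FPKM rest on few fragments.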
